A study of Mus musculus with 36 samples.

Results

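Gzma, Gzmb, Nkg7, Klrd1, Klrk1, Xcl1 and Ccl5 are genes of cytotoxic lymphocytes and natural killer (NK) cells, and they were measured in mouse colon tissue and colon tumours. They were chosen by symbol and are 7 of the 988 genes of a targeted RNA panel for immune and cancer genes. The study compared wild-type mice (strain C57BL/6) with mice of the strain labelled C57BL/6 (cKitw-sh), called sash here, which carry the sash mutation of Kit and are used as mast cell-deficient mice. Because the mutation lies at Kit, a receptor that other cell types use as well, the sash mice are not a model of mast cell loss alone. Colon tumours came from wild-type (n = 5) and sash (n = 5) mice aged 32 weeks. They had received 6 injections of the colon carcinogen azoxymethane (AOM, 10 mg/kg each week), and 18 weeks had passed since the last. Colon samples with preneoplastic lesions came from wild-type (n = 3) and sash (n = 3) mice of 14 weeks, 3 weeks after 3 weekly AOM injections. In a further experiment on wild-type C57BL/6 mice of 14 weeks, AOM was given alone (n = 3), with the mast cell stabiliser cromolyn during the 3 weeks of injections (n = 3), or with cromolyn in the 3 weeks after them (n = 3). Every group named so far had received AOM, so none is untreated colon. Tumours of MC-38, a mouse colon carcinoma cell line, came from wild-type (n = 4) and sash (n = 5) hosts that had received saline. The strain and age of those hosts are not in the labels.

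Cytotoxic lymphocytes, which are CD8 T cells, NK cells and some intraepithelial lymphocytes of the gut, kill target cells by releasing granules. Granzymes A and B (Gzma, Gzmb) are granule proteases that enter the target cell, and Nkg7 is a membrane protein of the granules. Klrd1 encodes CD94, which pairs with NKG2 proteins to read MHC class I on other cells, and Klrk1 encodes NKG2D, a receptor for ligands that stressed and transformed cells display. Xcl1 and Ccl5 are chemokines these lymphocytes secrete. Xcl1 acts on cross-presenting dendritic cells through the receptor Xcr1, and Ccl5 draws in T cells and myeloid cells through several chemokine receptors, Ccr3 among them. The genes are shared by these lymphocyte types, so their levels do not tell one from another.

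Promoter windows are shown for Gzmb, Nkg7 and Xcl1 because Nkg7 and Xcl1 fell between lesions and tumours in both genotypes and Gzmb in neither, as described further on. Of the 7 genes, 5 had an entry in the RefSeq promoter table (GRCm38.p6). Klrd1 and Ccl5, which also fell in both genotypes, had none. The window is the 250 bases before the annotated start, written 5′ to 3′ on the gene's own strand. Capitals mark the T-box motif GGTGTGA and the Runx motif TGTGGT, on either strand (TCACACC and ACCACA on the other). T-box and Runx factors are regulators of cytotoxic lymphocyte genes. The windows lie at chr14:56262335-56262584 (minus strand) for Gzmb, chr7:43436888-43437137 (plus strand) for Nkg7 and chr1:164935523-164935772 (minus strand) for Xcl1.
Gzmb: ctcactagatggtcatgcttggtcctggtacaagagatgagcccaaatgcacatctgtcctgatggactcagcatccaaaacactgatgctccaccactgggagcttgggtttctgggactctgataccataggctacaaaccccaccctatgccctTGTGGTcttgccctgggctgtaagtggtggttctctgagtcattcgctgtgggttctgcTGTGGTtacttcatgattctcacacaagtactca
Nkg7: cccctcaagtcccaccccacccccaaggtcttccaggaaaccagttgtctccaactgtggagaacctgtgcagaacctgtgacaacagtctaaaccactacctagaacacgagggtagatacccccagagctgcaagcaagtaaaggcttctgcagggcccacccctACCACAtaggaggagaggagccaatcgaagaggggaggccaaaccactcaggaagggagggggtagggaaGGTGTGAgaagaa
Xcl1: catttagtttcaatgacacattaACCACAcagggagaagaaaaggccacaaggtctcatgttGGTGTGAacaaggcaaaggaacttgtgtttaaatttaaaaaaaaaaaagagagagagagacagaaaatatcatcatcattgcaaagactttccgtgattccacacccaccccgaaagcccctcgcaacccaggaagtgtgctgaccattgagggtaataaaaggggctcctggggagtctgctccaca
The Runx letters stood in all 5 windows, those of Gzma, Gzmb, Nkg7, Klrk1 and Xcl1, and in 14.05% of the 32851 windows of this length in the table. Gzmb held them at 2 places, 93 to 88 and 34 to 29 bases before the start. The T-box letters stood in 2 of the 5 windows, at 13 to 7 bases before the start of Nkg7 and 188 to 182 bases before that of Xcl1, and in 3.33% of all windows. They were absent from the window of Gzmb. They were also absent from those of Gzma and Klrk1, whose fall passed the test in sash mice only. Other motifs were searched on both strands. The ETS letters AGGAAGT (7.69% of all windows), the interferon-gamma element TTCNNNGAA (7.02%) and the AP-1 letters TGANTCA (6.75%) each stood in 1 of the 5 windows. The NF-kB letters GGAANTTCC (0.81%) and the CRE letters TGACGTCA (1.55%) stood in none of the 5. No T-box or Runx match overlapped another in these windows. The matches describe the letters of the windows and are not evidence of binding.

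The data comprise 34 libraries of the study's 36 samples, with 449880 to 1264354 counts in the 25 AOM libraries and 480136 to 986415 in the 9 MC-38 libraries. The labels do not say that the samples of a group are separate mice. The p-values thus set a difference only against the spread of these samples, and part of that spread may be technical. Levels are CPM, the counts of a gene relative to the scaled library total. The panel amplifies a short stretch of each transcript, so levels are compared between samples for a gene and not between genes, and the AOM and MC-38 tables were scaled separately. In bulk tissue, fewer cells of a type and less RNA per cell cannot be told apart. Kit, the mutated gene, read 334 to 509 CPM in the wild-type lesions and 114 to 143 CPM in the sash lesions, and 95.3 to 476 CPM against 49.7 to 99.3 CPM in the tumours. In MC-38 tumours Kit was near background (2.05 to 23.2 CPM), while the mast cell protease gene Cpa3 fell by 6.72 ± 0.38 (log2, SE) in sash hosts (edgeR adjusted p = 8.12e-07).

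Among the AOM libraries, each of the 7 cytotoxic genes had its lowest mean in a tumour group. Gzmb was low in the wild-type tumours only, and its mean in sash tumours was among the highest. The means of Gzma, Gzmb, Nkg7, Klrd1 and Ccl5 were highest in the samples given cromolyn together with AOM. In every group each of the 7 genes was detected in every library. All values in this and the next 3 paragraphs are CPM as mean ± SD over the samples of a group. The order of the cromolyn groups beside groups of other experiments is a description and was not tested.

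Gzma, the granzyme with trypsin-like activity, was lowest in sash tumours (23.0 ± 9.89) and wild-type tumours (25.1 ± 6.87). It stood at 49.98 ± 17.4 in wild-type lesions, 61.5 ± 6.34 after AOM alone and 89.0 ± 60.7 with cromolyn after AOM. It was highest in sash lesions (105 ± 78.0) and with cromolyn given together with AOM (179 ± 44.4). Of the 6 neighbouring pairs in that order, only wild-type tumours and wild-type lesions did not overlap. Gzmb, the granzyme that cleaves after aspartate and starts apoptosis, had another order. Its means ran from wild-type tumours (22.1 ± 8.18) through wild-type lesions (28.0 ± 14.6), AOM alone (28.4 ± 3.43), sash lesions (34.4 ± 18.8) and cromolyn after AOM (35.9 ± 26.02) to sash tumours (48.0 ± 7.08) and cromolyn with AOM (71.5 ± 38.1). All 6 neighbouring pairs overlapped. Nkg7 had 2 steps without overlap. Sash tumours (20.5 ± 11.4) and wild-type tumours (35.6 ± 17.1) were lowest and lay apart from the next group, the wild-type lesions (116 ± 23.7). Sash lesions (130 ± 33.1; 96.7 to 163), cromolyn after AOM (172 ± 24.0) and AOM alone (172 ± 16.1) followed, and cromolyn with AOM (315 ± 29.2) lay apart from all of them.

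The receptor Klrd1 was lowest in sash tumours (20.7 ± 2.96) and wild-type tumours (36.7 ± 14.3). The next mean, 72.6 ± 16.2 with cromolyn after AOM, lay above the wild-type tumours without overlap. The neighbours above it overlapped, with 74.0 ± 33.6 after AOM alone, 86.6 ± 39.9 in wild-type lesions, 102 ± 44.3 in sash lesions and 103 ± 37.5 in cromolyn with AOM. Klrk1 had the lowest counts of the receptors, 5 to 28 per AOM library. Its means were 8.01 ± 3.50 in sash tumours, 16.8 ± 9.71 in wild-type tumours and 24.7 ± 6.51, 25.1 ± 8.997 and 27.8 ± 15.8 in the samples with cromolyn during AOM, cromolyn after AOM and AOM alone. Sash lesions (29.6 ± 3.26) and wild-type lesions (33.9 ± 6.63) were highest, and all 6 neighbouring pairs overlapped.

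The chemokine Xcl1 was lowest in sash tumours (5.49 ± 3.76) and did not overlap there with the wild-type tumours, the next group (18.9 ± 4.35). Its level was 26.7 ± 8.31 with cromolyn after AOM, 28.6 ± 12.2 with cromolyn during AOM and 35.3 ± 13.3 after AOM alone. The lesions were highest, at 66.9 ± 49.2 in wild-type and 71.9 ± 34.8 in sash mice, with wide spread. Ccl5 was lowest in sash tumours (42.7 ± 12.8) and wild-type tumours (59.3 ± 42.8). Its means ran through wild-type lesions (163 ± 60.9), sash lesions (238 ± 104), AOM alone (246 ± 53.9) and cromolyn after AOM (254 ± 86.1) to 502 ± 33.2 with cromolyn during AOM, the only step without overlap between neighbours.

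In MC-38 tumours of both hosts 6 of the 7 genes had higher means than in any AOM group, and Gzma did so in wild-type hosts only. The tables were scaled separately, and the samples differ in how much colon epithelium they hold. Ccl5 read 9013 ± 2603 in wild-type and 14587 ± 6091 in sash hosts, Nkg7 4383 ± 885 and 4949 ± 1249, and Klrd1 1428 ± 554 and 1694 ± 487. Gzmb read 319 ± 93.7 and 359 ± 53.4, Klrk1 311 ± 45.8 and 292 ± 70.5, Xcl1 346 ± 98.1 and 175 ± 76.3, and Gzma 249.6 ± 94.1 and 172 ± 54.1. Other genes of these cells did not all go the same way. Prf1, the pore-forming granule protein, averaged 23.2 and 35.2 CPM in MC-38 tumours of wild-type and sash hosts and at most 2.84 CPM in an AOM group. The NK receptor gene Ncr1 averaged 46.3 and 34.3 against at most 7.70 CPM, and Ifng, the cytokine interferon-gamma, 166 and 183 against at most 6.41 CPM. Prf1 and Ifng were at 0 counts in some AOM libraries and were barely detected by this panel in the colon samples. The granzyme gene Gzmm went the other way, with 0.852 and 0.877 CPM in MC-38 tumours and 4.27 to 10.97 CPM in the AOM groups. The NK receptor gene Klrb1 was at 0.264 and 0 CPM against at most 7.01 CPM. The summed level of the 3 epithelial genes (Epcam, Car4, Tmigd1) was 24.3 to 189 CPM in MC-38 tumours (with Tmigd1 at 0 in wild-type hosts) and 20991 to 90094 CPM in the AOM libraries.

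**Figure D1:**
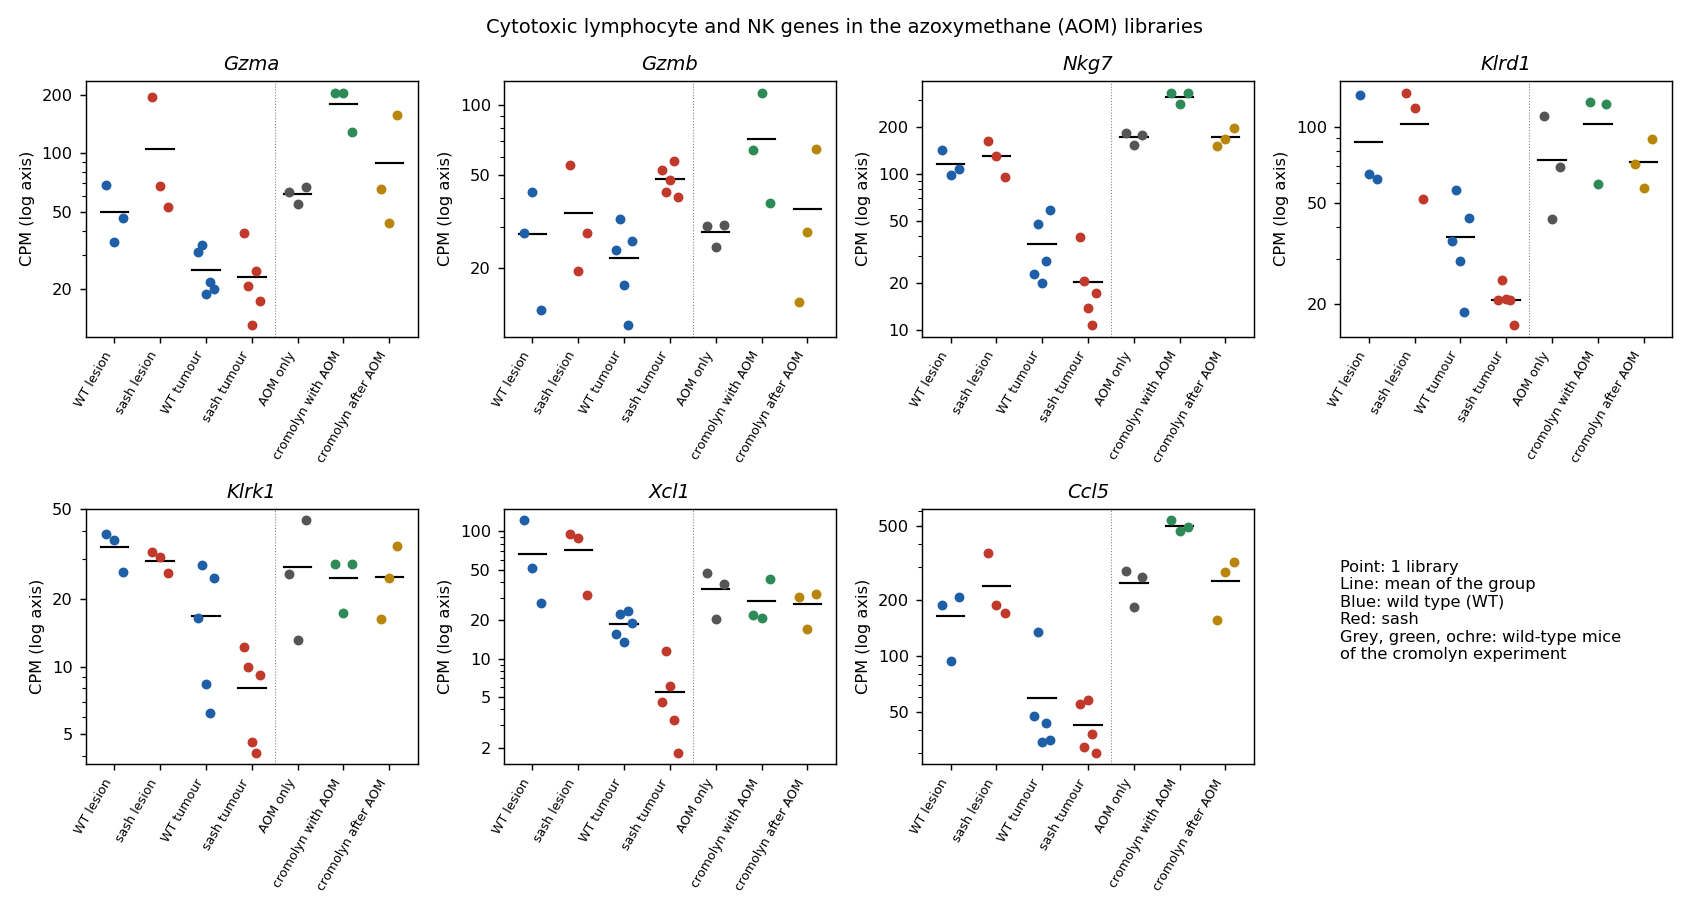
CPM of the 7 genes in the 25 AOM libraries on a log axis (point, 1 library; line, group mean), with groups on the horizontal axis. Tumour libraries of both genotypes are lowest for Nkg7, sash tumours stand high for Gzmb, and the cromolyn with AOM samples are highest for Nkg7 (281 to 334) and Ccl5 (471 to 537).

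Between the lesions of 14 weeks and the tumours of 32 weeks, 6 of the 7 genes were lower in tumours of both genotypes, and Gzmb was the exception. In sash mice Gzma, Nkg7, Klrd1, Klrk1, Xcl1 and Ccl5 fell by 1.87 to 3.67 on the log2 scale and each passed the test. In wild-type mice Nkg7, Klrd1, Xcl1 and Ccl5 fell by 1.27 to 1.85, and Gzma and Klrk1 did not pass. Age, the number of AOM injections and the tissue sampled differ together with the stage and cannot be told apart.

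Nkg7 read 143, 98.5 and 107 CPM in the wild-type lesions and 23.0, 47.9, 19.9, 27.9 and 59.1 CPM in the wild-type tumours. In sash mice it read 163, 131 and 96.7 CPM in lesions and 39.7, 20.7, 13.9, 10.8 and 17.4 CPM in tumours. Every tumour lay below every lesion of its genotype. The difference was -1.75 ± 0.43 (log2, SE) in wild-type mice (edgeR quasi-likelihood test, adjusted p = 0.00637) and -2.66 ± 0.43 in sash mice (adjusted p = 0.000216).

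Xcl1 read 122, 51.5 and 27.3 CPM in the wild-type lesions and 15.6, 22.5, 13.6, 23.8 and 18.9 CPM in the tumours, again without overlap. In sash mice the lesions read 94.9, 88.9 and 31.8 CPM and the tumours 4.58, 11.6, 6.16, 3.32 and 1.83 CPM, the last from 2 counts. The difference was -1.85 ± 0.53 in wild-type mice (edgeR adjusted p = 0.0141) and -3.67 ± 0.56 in sash mice (adjusted p = 0.000120), the largest fall of the 7 genes in sash mice.

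Ccl5 read 189, 93.9 and 207 CPM in the wild-type lesions and 47.6, 135, 34.6, 43.4 and 35.4 CPM in the tumours, where tumour 2 lay within the range of the lesions. In sash mice it read 358, 188 and 170 CPM in lesions and 54.9, 32.3, 57.7, 38.2 and 30.2 CPM in tumours, without overlap. The differences were -1.51 ± 0.45 (edgeR adjusted p = 0.0181) and -2.49 ± 0.45 (adjusted p = 0.000509).

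Klrd1 read 133, 65.1 and 62.2 CPM in the wild-type lesions and 35.3, 56.4, 29.4, 18.6 and 43.7 CPM in the tumours. In sash mice it read 136, 118 and 51.9 CPM in lesions and 16.5 to 24.8 CPM in tumours (median 20.8). No tumour overlapped the lesions of its genotype. The differences were -1.27 ± 0.40 (edgeR adjusted p = 0.0219) and -2.30 ± 0.40 (adjusted p = 0.000364). Klrk1, the gene of NKG2D, read 26.4 to 38.9 CPM in the wild-type lesions and 6.20 to 28.2 CPM in the wild-type tumours, and the difference of -1.05 ± 0.48 did not pass (adjusted p = 0.0987). In sash mice Klrk1 read 25.9 to 32.2 CPM in lesions and 4.15 to 12.2 CPM in tumours and fell by 1.87 ± 0.49 (adjusted p = 0.00611).

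The granzymes parted. Gzma read 69.0, 34.8 and 46.1 CPM in the wild-type lesions and 18.9 to 33.8 CPM in the tumours, all lower, with a difference of -1.03 ± 0.46 that did not pass (edgeR adjusted p = 0.0912). In sash mice it read 195, 68.1 and 53.1 CPM in lesions and 13.1 to 38.9 CPM in tumours and fell by 2.20 ± 0.45 (adjusted p = 0.00119). Gzmb read 28.3, 42.4 and 13.2 CPM in the wild-type lesions and 11.4 to 32.4 CPM in the tumours, and 55.5, 19.4 and 28.3 CPM in the sash lesions against 40.3 to 57.3 CPM in the sash tumours. Its differences were -0.36 ± 0.45 (adjusted p = 0.551) and 0.47 ± 0.45 (adjusted p = 0.405), and lesions and tumours overlapped in both genotypes.

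The stage comparison moved much of the panel. Of the 848 genes tested, 37.0% passed in wild-type mice (17.6% lower in tumours) and 47.5% in sash mice (23.6% lower), against 4 and 6 of the 7 cytotoxic genes, all lower. Groups did not overlap, with tumours lower, for 11.7% of genes in wild-type and 25.1% in sash mice, against 4 and 6 of the 7. The median difference of the 7 genes was -1.27 in wild-type and -2.30 in sash mice, beside 0.00 and 0.02 over all genes tested. The calls in wild-type mice rest on few libraries. Without wild-type lesion 1, which had the highest Klrd1 and Xcl1, Nkg7 alone passed, with Klrd1 at -0.80 (adjusted p = 0.184), Xcl1 at -1.06 (adjusted p = 0.175) and Ccl5 at -1.35 (adjusted p = 0.0703). Klrd1 also missed the threshold with scaling to library totals (adjusted p = 0.0566) and without wild-type tumour 3 (adjusted p = 0.0515), as did Ccl5 without wild-type lesion 3 (adjusted p = 0.0731), whereas Klrk1 passed without wild-type tumour 2 (adjusted p = 0.0413). In sash mice the 6 calls were kept in every alternative fitted.

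**Figure D2:**
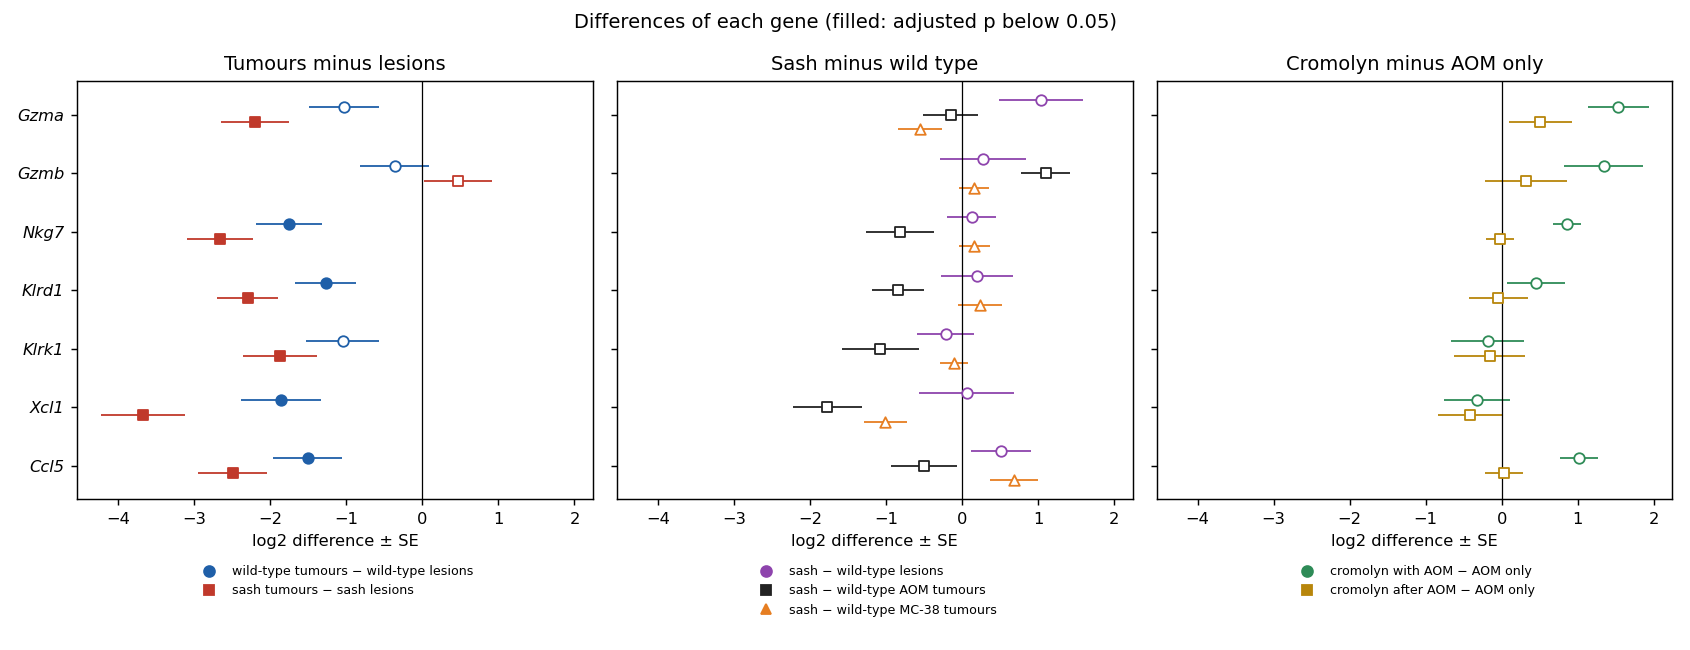
Log2 differences (horizontal axis, ± SE) of the 7 genes (vertical axis) between tumours and lesions, between genotypes and between cromolyn and AOM alone, filled where the edgeR adjusted p is below 0.05. Filled points appear only between stages, where 6 genes fell in sash mice and 4 in wild-type mice, and Gzmb did not pass in either.

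Other genes of the same cells and their partners moved in different directions. Of 4 further granule and effector genes tested (9 on the panel), the granule protease gene Ctsw fell in both genotypes (-1.29 and -1.82), Cst7, a protease inhibitor of cytotoxic granules, fell in wild-type mice (-1.52), and the granzyme gene Gzmc rose in wild-type mice (3.38). Of 4 further NK receptor and adaptor genes tested (9 on the panel), Cd160, a receptor of NK cells and intraepithelial lymphocytes, fell in both genotypes (-2.26 and -3.29). Cd96, a receptor of T and NK cells, fell in sash mice (-1.90), and the Fc receptor gene Fcgr3, which myeloid cells also express, rose in both (1.06 and 1.73). Of 8 regulators tested (14 on the panel), none passed in wild-type mice. In sash mice Il15, the cytokine that maintains NK and CD8 T cells, fell by 1.27, Il18 fell by 1.84, and Il2ra (1.91) and Prdm1 (1.35) rose. Among 4 partners of the chemokines tested (5 on the panel), Ccl3 and Ccl4, which share receptors with Ccl5, rose in wild-type (2.62 and 1.88) and sash mice (5.17 and 4.07). The receptor gene Ccr3 fell in wild-type mice (-1.83).

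The T cell list moved with the 7 genes in wild-type mice. Of its 13 tested genes (14 on the panel), 6 passed lower (Cd2, Cd4, Cd8a, Lck, Cd27 and Cd28) and Zap70 passed higher, whereas in sash mice Cd8a (-3.00) and Cd27 (-1.35) passed lower and Zap70 (2.63) higher. The summed T cell level was 718 to 1572 CPM in wild-type lesions and 301 to 858 CPM in wild-type tumours, and 535 to 745 and 509 to 646 CPM in sash lesions and tumours. The summed neutrophil level (4 genes) was 6.06 to 8.84 CPM in wild-type and 7.16 to 15.3 CPM in sash lesions, where Mpo was at 0, and 62.0 to 257 and 367 to 735 CPM in the tumours. The summed epithelial level was 50767 to 61522 and 55848 to 90094 CPM in wild-type and sash lesions and 25882 to 49823 and 24925 to 30490 CPM in the tumours. Of its 3 genes, Car4 and Tmigd1 passed lower in both genotypes, while Epcam was above 0 without passing. The lower sum is therefore not a fall of all epithelial genes. Of 5 B cell genes tested, all 5 passed lower in wild-type mice (median -3.09; 580 to 2272 CPM summed in lesions and 17.8 to 533 CPM in tumours), and all 5 were below 0 without passing in sash mice (median -2.72). The platelet genes Pf4, Ppbp and Selp passed higher in both genotypes (medians 2.58 and 3.56), with summed levels of 57.4 to 88.4 and 78.8 to 121 CPM in lesions and 272 to 525 and 513 to 1206 CPM in tumours. Of 6 macrophage and monocyte genes, all 6 were above 0 in both genotypes, with Cd14 and Itgam passing in wild-type and Cd68, Cd14 and Itgam in sash mice. The dendritic cell list had only Irf8 on the panel, which passed lower in sash mice (-1.32) and did not pass in wild-type mice (-0.56). Of 6 mast cell genes tested, Hdc passed higher in wild-type mice. In sash mice Hdc and Hpgds passed, 1 higher and 1 lower. The part of these cell types in the result was not tested.

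Counts of each gene were also set against those of Ptprc, the gene of the pan-leukocyte protein CD45, and of Cd3e, a T cell receptor subunit, in the same library. Ptprc differed by -0.75 ± 0.36 in wild-type (edgeR adjusted p = 0.115) and 0.67 ± 0.38 in sash mice (adjusted p = 0.151). Per count of Ptprc, Gzma, Nkg7, Klrd1, Klrk1, Xcl1 and Ccl5 were lower in every sash tumour than in every sash lesion, by 2.67 to 4.49 on the log2 scale. Of the 847 genes tested other than Ptprc, 41.0% showed the same separation. Per count of Cd3e, Nkg7 (-1.82), Klrd1 (-1.23), Xcl1 (-2.85) and Ccl5 (-1.48) were still lower in all 5 sash tumours, while Gzmb was higher in all 5 (1.58). Of the 847 genes tested other than Cd3e, 6.14% were lower and 50.1% higher without overlap in that ratio. In wild-type mice no gene of the 7 was separated per count of Ptprc.

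The genotypes were compared within the tumours. Xcl1 was lower and Gzmb higher in all 5 sash tumours than in all 5 wild-type tumours, but no gene of the panel passed the adjusted threshold. Xcl1 read 15.6, 22.5, 13.6, 23.8 and 18.9 CPM in wild-type and 4.58, 11.6, 6.16, 3.32 and 1.83 CPM in sash tumours, which were 13 to 23 against 2 to 14 counts. The groups did not overlap, and the difference was -1.77 ± 0.46 (edgeR adjusted p = 0.0740). Gzmb read 23.8, 32.4, 16.8, 11.4 and 25.99 CPM in wild-type and 52.6, 42.2, 47.7, 57.3 and 40.3 CPM in sash tumours. The lowest sash tumour lay above the highest wild-type tumour, with a difference of 1.10 ± 0.33 (edgeR adjusted p = 0.0942).

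The other genes overlapped between the genotypes. Klrd1 read 18.6 to 56.4 CPM (median 35.3) in wild-type and 16.5 to 24.8 CPM (median 20.8) in sash tumours, a difference of -0.84 ± 0.34 (edgeR adjusted p = 0.201). Klrk1 differed by -1.08 ± 0.51, Nkg7 by -0.81 ± 0.45, Ccl5 by -0.50 ± 0.43 and Gzma by -0.15 ± 0.36, with edgeR adjusted p between 0.268 and 0.838. Ccl5 in wild-type tumours depends on tumour 2 (135 CPM), without which its difference was 0.077.

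Of the 797 genes tested, 0% passed the adjusted threshold and 19.9% had an unadjusted p below 0.05, against 3 of the 7 (Gzmb, Klrd1 and Xcl1). Groups did not overlap for 3.89% of genes with sash higher, as for Gzmb, and for 1.51% with sash lower, as for Xcl1. The median of the 7 was -0.81 beside -0.04 over all genes. DESeq2 called 8.84% of the 928 genes it gave an adjusted p, Gzmb and Xcl1 among them (adjusted p = 0.00588 for each). A fit of all AOM groups together called Xcl1 (edgeR adjusted p = 0.0188). Over the 18 alternatives the adjusted p ran from 0.00588 to 0.218 for Xcl1 and from 0.00588 to 0.261 for Gzmb, and both kept their direction in every alternative.

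None of the other cytotoxic, NK, regulator or partner genes passed in this comparison. The values of smallest p were Ccl4 (2.14 ± 0.59, edgeR adjusted p = 0.0798), Ccl3 (1.91 ± 0.56, adjusted p = 0.0942) and Il15 (-0.87 ± 0.29, adjusted p = 0.122). Ptprc differed by 0.17 ± 0.34 (adjusted p = 0.807) and Cd3e by -0.27 ± 0.41 (adjusted p = 0.751), and the summed T cell level was 301 to 858 CPM in wild-type and 509 to 646 CPM in sash tumours. The summed neutrophil level was 62.0 to 257 CPM in wild-type and 367 to 735 CPM in sash tumours, without overlap, and its part in the result was not tested. Per count of Ptprc, Gzmb was above all wild-type tumours in 3 of 5 sash tumours (0.85), and Xcl1 (-2.36) and Klrd1 (-1.09) were below them in all 5, as were 0.879% of the 796 genes tested other than Ptprc. Per count of Cd3e no gene of the 7 was separated, with Gzmb above in 3 of 5 (1.24) and Xcl1 below in 4 of 5 (-1.98).

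In the lesions none of the 7 genes passed between the genotypes. Gzma read 69.0, 34.8 and 46.1 CPM in wild-type and 195, 68.1 and 53.1 CPM in sash lesions, a difference of 1.03 ± 0.55 (edgeR adjusted p = 0.375), and sash lesion 1 was the highest. Ccl5 read 189, 93.9 and 207 against 358, 188 and 170 CPM (0.51 ± 0.40, adjusted p = 0.578). The remaining 5 genes differed by -0.22 (Klrk1) to 0.28 (Gzmb), with adjusted p of at least 0.825, and all 7 overlapped between the groups. Of the 775 genes tested, 2.84% passed. The median of the 7 was 0.19 beside 0.05 over all genes.

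Ptprc was lower in the sash lesions (209 ± 19.5 CPM against 484 ± 194 CPM; -1.24 ± 0.31, edgeR adjusted p = 0.0788). B cell genes fell there (among them Ms4a1 -4.02 and Cd22 -3.04), with a summed B cell level of 37.7 to 206 CPM in sash against 580 to 2272 CPM in wild-type lesions. Of 13 T cell genes, 12 were below 0 (median -0.68) and none passed. Per count of Ptprc, Nkg7 was 0.203, 0.259 and 0.295 from the lowest to the highest wild-type lesion and 0.500, 0.644 and 0.705 in the sash lesions. Gzma, Klrd1, Klrk1 and Ccl5 were separated in the same way, so that 5 of the 7 genes were higher per Ptprc count in all 3 sash lesions, by 0.96 (Klrk1) to 2.03 (Gzma) on the log2 scale. The same held for 66.0% of the 774 genes tested other than Ptprc, beside the lower Ptprc itself, and per count of Cd3e none of the 7 was separated.

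**Figure D3:**
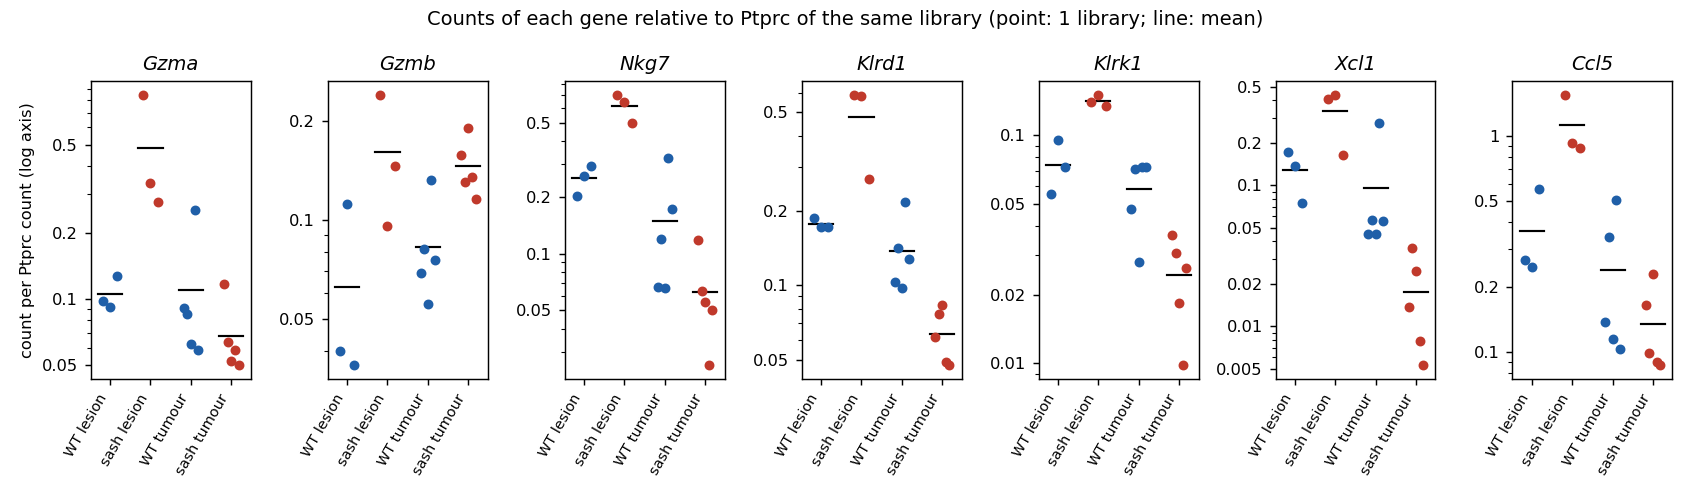
Counts of each gene per count of Ptprc in the same library (vertical log axis) for lesions and AOM tumours of each genotype (point, 1 library; line, mean). The mean is highest in sash lesions for all 7 genes and lowest in sash tumours for 6 of them, and for Gzmb the sash tumours (0.116 to 0.190) lie among the sash lesions (0.0959 to 0.240).

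The difference between the stage effects of the genotypes was tested itself. It was negative for 6 genes and largest for Xcl1 (-1.82 ± 0.77, edgeR adjusted p = 0.287), followed by Gzma (-1.17 ± 0.66), Klrd1 (-1.02 ± 0.57), Ccl5 (-0.98 ± 0.65), Nkg7 (-0.91 ± 0.62) and Klrk1 (-0.82 ± 0.70). For Gzmb it was 0.83 ± 0.63. The adjusted p of the 6 genes other than Xcl1 lay between 0.395 and 0.589. Of the 848 genes, 0% passed and 15.1% had an unadjusted p below 0.05, as 1 of the 7 did. The larger falls in sash mice were thus not shown to differ from those in wild-type mice.

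In the cromolyn experiment, the samples given cromolyn together with AOM had higher Gzma, Gzmb, Nkg7 and Ccl5 in all 3 samples than in all 3 samples given AOM alone, though none passed the adjusted threshold. Nkg7 read 185, 154 and 178 CPM after AOM alone, 330, 281 and 334 CPM with cromolyn during AOM, and 151, 168 and 198 CPM with cromolyn after AOM. The difference of cromolyn with AOM from AOM alone was 0.86 ± 0.18 (edgeR adjusted p = 0.0651). Ccl5 read 285, 184 and 268 CPM after AOM alone, 537, 471 and 497 CPM with cromolyn during AOM, and 157, 282 and 322 CPM with cromolyn after it. Its difference was 1.02 ± 0.25 (edgeR adjusted p = 0.0711). For both genes the samples with cromolyn during AOM lay above all 6 others.

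Gzma read 63.1, 54.5 and 66.9 CPM after AOM alone, 205, 205 and 128 CPM with cromolyn during AOM, and 65.2, 43.8 and 158 CPM with cromolyn after AOM, where replicate 3 reached the range of the samples treated together. The difference of cromolyn with AOM from AOM alone was 1.53 ± 0.40 (edgeR adjusted p = 0.0800). Gzmb read 30.4, 24.4 and 30.4 CPM, then 63.8, 113 and 37.9 CPM, then 14.3, 28.6 and 64.7 CPM in the same order of groups. Its difference was 1.34 ± 0.52 (adjusted p = 0.224). The receptors and Xcl1 overlapped between the groups. Klrd1 differed by 0.46 ± 0.38 (adjusted p = 0.544), Klrk1 by -0.19 ± 0.48 (adjusted p = 0.868) and Xcl1 by -0.32 ± 0.43 (adjusted p = 0.709).

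Of the 768 genes tested, 0.260% passed in this comparison, and 13.8% were higher without overlap, against 4 of the 7. The median of the 7 was 0.86, beside -0.03 over all genes. DESeq2 called 4.80% of 813 genes, with Gzma (adjusted p = 0.0126), Nkg7 (adjusted p = 0.00464) and Ccl5 (adjusted p = 0.00768) among them. Nkg7 (adjusted p = 0.0273) and Ccl5 (adjusted p = 0.0360) also passed in edgeR with scaling to library totals, and Nkg7 passed without replicate 2 of cromolyn with AOM (adjusted p = 0.0363). Over the 13 alternatives the adjusted p ran from 0.00464 to 0.869 for Nkg7, from 0.00768 to 0.869 for Ccl5 and from 0.0126 to 0.740 for Gzma, the highest in the fit of all AOM groups. All 13 T cell genes tested were above 0 (median 0.49) with a summed level of 904 to 1542 CPM against 694 to 921 CPM after AOM alone. All 5 B cell genes tested were above 0 (median 1.99; 408 to 1897 against 137 to 311 CPM), and Ptprc differed by 0.72 (adjusted p = 0.301). The summed epithelial level was 21995 to 50270 against 47531 to 62294 CPM. Per count of Ptprc and of Cd3e, Gzma was also higher in all 3 samples (0.85 and 0.89), as were 2.22% and 2.09% of the 767 genes tested other than the reference, whereas Nkg7, Gzmb and Ccl5 overlapped. The part of leukocyte content in the result was not tested further.

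With cromolyn given after AOM, none of the 7 genes passed against AOM alone, and the differences ran from -0.42 ± 0.43 (Xcl1) to 0.51 ± 0.41 (Gzma), with edgeR adjusted p of at least 0.501. Nkg7 (-0.02 ± 0.19) and Ccl5 (0.03 ± 0.25) were near 0. Of the 768 genes tested, 4.82% passed, Il15 among them (-1.23 ± 0.31, adjusted p = 0.0427). Per count of Ptprc, Nkg7 and Ccl5 were lower in all 3 samples (-0.57 and -0.56), as were 23.7% of the 767 genes tested other than Ptprc. All 13 T cell genes were again above 0, with a summed level of 778 to 1344 CPM. All 5 B cell genes tested were above 0 as well (median 2.05; 281 to 1725 CPM summed), and none passed.

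The cromolyn schedules were also compared directly. Nkg7 was higher with cromolyn during AOM than after it in all 3 samples (0.88 ± 0.18, edgeR adjusted p = 0.0697), as was Ccl5 (0.99 ± 0.25, adjusted p = 0.199). Gzma differed by 1.03 ± 0.39 (adjusted p = 0.411) and overlapped, and Gzmb by 1.02 ± 0.50 (adjusted p = 0.580). Of the 768 genes, 0% passed, 8.33% had an unadjusted p below 0.05 and 6.25% were higher without overlap, against 3 and 2 of the 7. DESeq2 called 0.638% of 941 genes, including Nkg7 (adjusted p = 0.00715) and Ccl5 (adjusted p = 0.0302). This comparison and those against AOM alone share samples.

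In MC-38 tumours 1 of the 7 genes, Xcl1, had an unadjusted p below 0.05 between hosts, as did 21.8% of the 714 genes tested. It read 326, 334, 479 and 243 CPM in wild-type and 302, 134, 109, 186 and 142 CPM in sash hosts, where 4 of the 5 sash tumours lay below all wild-type tumours and sash tumour 1 lay among them. The difference was -1.01 ± 0.28 (edgeR adjusted p = 0.0958). DESeq2 called it (adjusted p = 0.0255), and without sash tumour 1 it was -1.25 (edgeR adjusted p = 0.0344). Neither the other 13 alternatives nor the fit itself called it, and over all 15 the adjusted p ran from 0.0255 to 0.507. Gzma read 221, 254, 375 and 149 CPM against 201, 209, 88.3, 214 and 145 CPM and differed by -0.56 ± 0.29 (adjusted p = 0.285). Ccl5 read 7768, 6109, 10150 and 12023 CPM against 12953, 21994, 6953, 19447 and 11589 CPM and differed by 0.68 ± 0.31 (adjusted p = 0.230), with 3 of 5 sash tumours above all wild-type tumours.

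The granule and receptor genes overlapped between MC-38 hosts. Nkg7 read 4336, 3468, 4141 and 5588 against 4608, 6460, 3132, 5676 and 4870 CPM (0.16 ± 0.21, edgeR adjusted p = 0.662). Gzmb differed by 0.16 ± 0.20, Klrd1 by 0.24 ± 0.29 and Klrk1 by -0.11 ± 0.18, with adjusted p of at least 0.643. Of the 714 genes tested, 1.26% passed, and DESeq2 called 7.16% of 698. The median of the 7 was 0.16 beside -0.01 over all genes. Ptprc (0.38, adjusted p = 0.190), Cd3e (0.56, adjusted p = 0.228) and Cd8a (0.24, adjusted p = 0.385) did not pass, and 11 of 13 T cell genes were above 0 with summed levels of 2526 to 4104 in wild-type and 2795 to 5079 CPM in sash hosts. Per count of Cd3e, Xcl1 (-1.58) and Klrk1 (-0.65) were each lower in 4 of 5 sash tumours than in all wild-type tumours. Per count of Ptprc the same held for Xcl1 (-1.42), Klrk1 (-0.50) and Nkg7 (-0.23), and no gene of the 7 was lower in all 5.

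**Figure D4:**
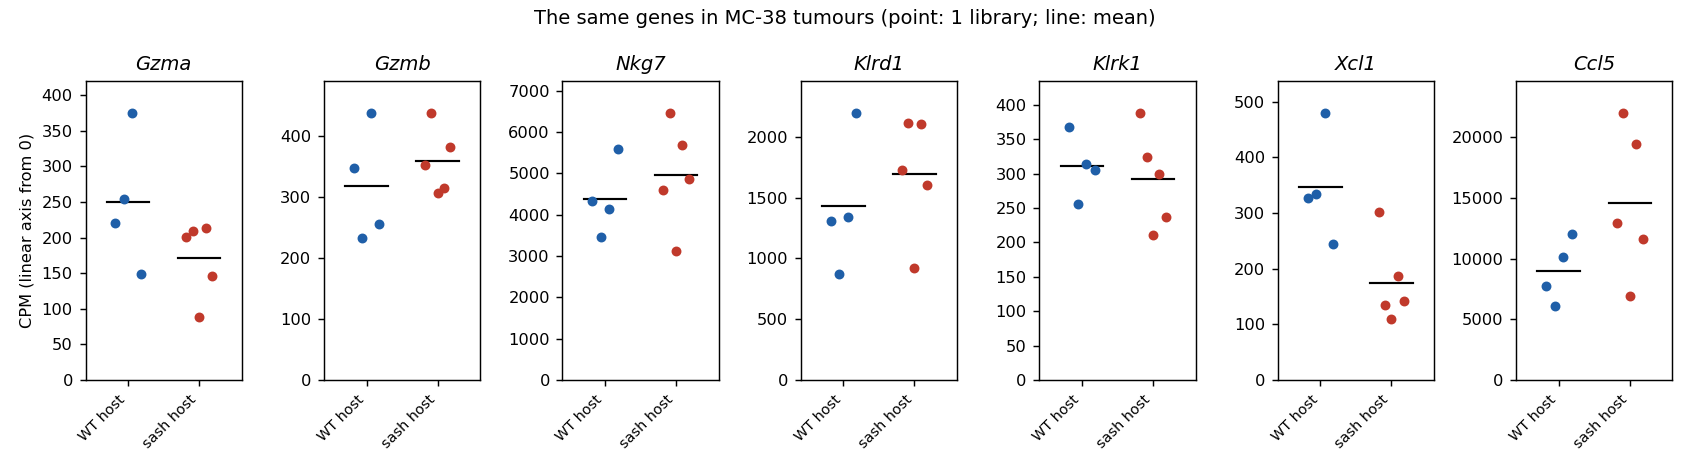
CPM of the 7 genes in MC-38 tumours of 4 wild-type and 5 sash hosts on linear axes from 0 (point, 1 library; line, mean). For Xcl1, 4 of the 5 sash tumours (109 to 186) lie below every wild-type tumour (243 to 479), and for Ccl5 3 of the 5 sash tumours lie above every wild-type tumour.

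Wild-type lesions and the AOM-only samples carry the same labelled treatment, age and strain but come from different experiments. None of the 7 genes passed between them, although 22.3% of the 783 genes tested did. Nkg7 was lower in all 3 wild-type lesions (-0.63 ± 0.24, edgeR adjusted p = 0.0700), as were 19.0% of the genes tested, and it was the only one of the 7 without overlap. Ccl5 differed by -0.64 ± 0.34 (adjusted p = 0.192) and Xcl1 by 0.84 ± 0.55 (adjusted p = 0.288), and the other 4 lay between -0.36 (Gzma) and 0.22 (Klrk1). Levels of the cromolyn groups were therefore tested only against samples of their own experiment. Their place in the order of all AOM groups given above is a description.

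Over the 25 AOM libraries the log2(CPM + 1) levels of most pairs of the 7 genes rose together. Pearson's r of the 21 pairs had a median of 0.70 and ranged from -0.21 (Gzmb and Xcl1) to 0.93, with 20 above 0. Gzmb followed the rest least, with r of 0.41 with Gzma, 0.25 with Ccl5, 0.14 with Nkg7, 0.08 with Klrd1 and 0.03 with Klrk1. These points share groups, depth and scaling. After group means were taken off, all 21 pairs were above 0, with a median of 0.41. In the 9 MC-38 libraries Nkg7 and Klrd1 (r = 0.96), Nkg7 and Ccl5 (0.91) and Klrd1 and Ccl5 (0.90) went together, as did Gzma and Xcl1 (0.80), while r was -0.30 for Xcl1 and Ccl5. With group means taken off, that pair was at 0.18 and all 21 pairs were above 0 (median 0.51).

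**Figure D5:**
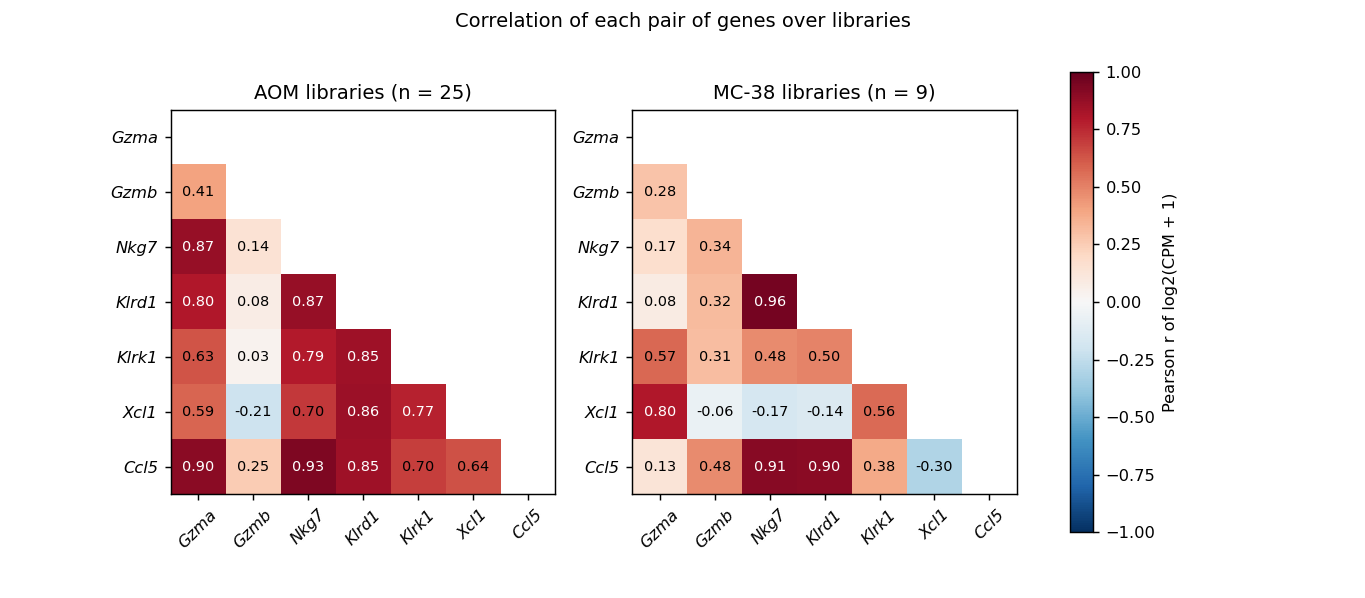
Pearson's r of log2(CPM + 1) for each of the 21 pairs of genes over the 25 AOM libraries (left) and the 9 MC-38 libraries (right), with colour from -1 (blue) to 1 (red). Gzmb has the weakest correlations in the AOM libraries (-0.21 to 0.41), and in MC-38 tumours Nkg7, Klrd1 and Ccl5 are paired at 0.90 to 0.96.

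The genes whose levels were most like the mean standardised level of the 7 were listed as a description. Over the 25 AOM libraries and 839 genes these were Psmb9, an immunoproteasome subunit (r = 0.91), the T cell co-receptor gene Cd8a (0.89), Cd96 (0.89), Ciita, the regulator of MHC class II genes (0.88), and the peptide transporter gene Tap1 (0.86). Cd3e came at place 52 (0.78) and Ptprc at place 241 (0.47). With group means taken off, they were the T cell adaptor gene Sh2d2a (0.85), the B cell gene Cd22 (0.84), Cd2 (0.82), Cd3d (0.79) and Cd96 (0.78). Over the 9 MC-38 libraries and 705 genes they were Fut4 (0.96), a fucosyltransferase gene, Tnfrsf25 (0.90), a death receptor of T cells, 4632428N05Rik (0.88), Selplg (0.85), the P-selectin ligand of leukocytes, and Gch1 (0.84). In that order Ptprc came at place 168 (0.43), Cd8a at place 226 (0.31) and Cd3e at place 266 (0.19).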

How the data were processed

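RNA was read with a targeted panel (QIAseq, Mouse Immuno-Oncology), per the labels' protocols. The values are whole-number counts per gene as deposited by the authors, not normalised, in 1 table of 25 AOM and 1 of 9 MC-38 libraries. Each table has 993 entries, of which 5 controls, at 0 throughout, were left out. The submitters' processing notes name mm9 and DESeq2; no source used here gives the aligner, the counter or whether molecular tags were counted. Samples were grouped by the labels, and 2 of the 36 samples were not analysed here.

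Counts were tested with edgeR 4.0.16 (R 4.3.3; TMM scaling, filterByExpr at a minimum count of 10 and total of 15, robust quasi-likelihood test, Benjamini-Hochberg adjustment over all genes of a comparison, threshold 0.05). All 7 genes passed the filter in every comparison. The genotypes were fitted within tumours, within lesions and within MC-38 tumours, the 3 cromolyn groups in 1 fit, and both stages of both genotypes (4 groups) in 1 fit for the stage comparisons and their difference. Every adjusted p is from edgeR unless DESeq2 is named. CPM were scaled with TMM factors computed over the libraries of each table, and correlations used a pseudocount of 1. The code was tested on simulated data.

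The members and gene lists were chosen with earlier results of these data known. Named were the 7 genes in every comparison, and of each other list described every gene that passed, or up to 4 of smallest p as values. Ptprc, Cd3e and Cd8a were references, and the 5 genes most like the 7 were listed. Some genes that this rule names are left out here. Further lists covered NK, T, B and dendritic cells, macrophages, neutrophils, mast cells, platelets and epithelium, and some of their counts or levels are given beside the main results. Alternatives were DESeq2 1.42.0, RLE size factors, library totals, scaling to the housekeeping gene, no filter, the replicate number as a block, all AOM groups in 1 fit, leaving out wild-type tumours 2 and 4, and leaving out each replicate. Replicate pairs of a group differed by more than sampling noise (chi-square per degree of freedom 5.85 to 194 over 51 pairs). Lesion samples of the 2 genotypes with the same replicate number had correlations of deviations of 0.117 to 0.451 over 3 pairs. The labels do not pair these samples. Promoters are from RefSeq (GRCm38.p6), which is not the build of the counts, and served for sequences only.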

Additional observations from a re-analysis of the deposited data

Results flagged for a closer look

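Ccl5 in wild-type tumour 2 was 135 CPM, far above the next wild-type tumour at 47.6 CPM. The gap was 0.871 of the range of the 5 tumours. Of 28 sets of samples checked in this way, 1 stood out, where chance gives about 1 in 20. The same tumour had the highest summed B cell level of the wild-type tumours, 533 CPM against a median of 27.9 CPM. Without it, Ccl5 differed by 0.077 between the genotypes in tumours.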

How the results depend on the processing

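Of 1071 values of single genes under alternatives, 1000 kept their direction and their side of the threshold, 47 changed direction, 14 gained and 10 lost a call. The number of the 7 genes called rose from 0 to 2 with DESeq2 and to 1 with all AOM groups in 1 fit for genotype in tumours, to 3 with DESeq2 and 2 with library totals for cromolyn with AOM (0 to 1 with a replicate left out), to 2 with DESeq2 between the cromolyn schedules, and to 1 with DESeq2 for MC-38 tumours (0 to 1 with a replicate left out). For wild-type tumours against lesions it fell from 4 to 2 with housekeeping scaling, which rests on 1 gene, to 2 with the replicate block and to 3 with library totals, and was 1 to 5 with a replicate left out.

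Values that changed direction reached 0.38 in size, and some were larger in size than the value of the main fit. For Gzmb with cromolyn after AOM, the main fit gave 0.32 and the lowest alternative -0.38. With wild-type tumours 2 and 4 left out Ccl5 was 0.12 between genotypes in tumours. For cromolyn after AOM, Nkg7 was 0.094 with library totals and 0.14 with housekeeping scaling, Klrd1 0.091 and 0.17, and 0.012 with the replicate block, and Klrk1 0.0072 with housekeeping scaling. With that scaling Xcl1 was -0.33 between the cromolyn schedules, and Klrd1 -0.32 and Klrk1 -0.26 for wild-type lesions against AOM alone. In MC-38 tumours the replicate block gave Gzmb -0.088, Nkg7 -0.12 and Klrd1 -0.086. With a replicate left out the ranges were, for genotype in tumours, Gzma -0.40 to 0.0043 and Ccl5 -0.67 to 0.077; in lesions, Gzmb -0.18 to 0.79, Nkg7 -0.027 to 0.35, Klrd1 -0.019 to 0.69 and Xcl1 -0.33 to 0.88. For cromolyn with AOM, Klrk1 ran from -0.55 to 0.33. For cromolyn after AOM, Gzma ran from -0.16 to 0.85, Gzmb -0.38 to 0.69, Nkg7 -0.11 to 0.063, Klrd1 -0.34 to 0.38, Klrk1 -0.52 to 0.36 and Ccl5 -0.16 to 0.28. Between the schedules, Klrk1 ran from -0.26 to 0.25 and Xcl1 from -0.28 to 0.27, Gzmb in wild-type tumours against lesions from -0.70 to 0.11, and for wild-type lesions against AOM alone Gzmb from -0.53 to 0.29, Klrd1 -0.26 to 0.57 and Klrk1 -0.13 to 0.73. The cause was not tested.

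Counts of all genes called moved more. For genotype in tumours 0 became 82 with DESeq2, 88 with all AOM groups, 2 with library totals and 6 without wild-type tumours 2 and 4 (0 to 17 with a replicate left out, the most without sash tumour 1). In lesions 22 became 70 with DESeq2, 36 with no filter and 84 with the replicate block, which called none of the 7 (0 to 68, from without sash lesion 2 to without wild-type lesion 3). For cromolyn with AOM 2 became 39, 18 with library totals, 1 with housekeeping scaling, 7 with the block and 0 with all AOM groups (0 to 15). For cromolyn after AOM 37 became 10 with housekeeping scaling, 21 with the block and 0 with all AOM groups (1 to 8). Between schedules 0 became 6 with DESeq2, 3 with library totals and 4 with housekeeping scaling (0 to 1). In MC-38 tumours 9 became 50 with DESeq2 and 3 with housekeeping scaling and with the block (3 to 17). For the stages 314 became 125 with housekeeping scaling in wild-type mice (183 to 367) and 403 became 229 in sash mice (298 to 389). For their difference 0 became 20 with DESeq2, 4 with all AOM groups and 8 without wild-type tumours 2 and 4 (0 to 10). For wild-type lesions against AOM alone 175 became 14 with housekeeping scaling and 85 with all AOM groups (55 to 252).

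The labels do not give replicate numbers as pairs, so the block is no paired analysis. Outside the lesion genotypes at most 2 pairs of a comparison correlated above 0.1, and between the lesion genotypes 3 did. Between the MC-38 hosts the 3 pairs ran from -0.002 to 0.626, with 2 above 0.1. Scaling moved the median of all genes most with the housekeeping gene (-0.43 for wild-type lesions against AOM alone, -0.40 between schedules, -0.27 for cromolyn with AOM) and with library totals by 0.22 and 0.18 in the stage comparisons of wild-type and sash mice. Depth limits Xcl1 and Klrk1 most, with 2 to 23 and 5 to 21 counts per tumour library. With 3 samples a group, moderate differences may go undetected.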
